A study of Mus with 2 samples.

Results

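Dividing stromal cells of the newborn mutant kidney are described here. They were picked in single-cell RNA libraries by their transcripts: barcodes with at least 2000 unique molecular identifiers (UMIs, each standing for 1 captured RNA molecule) and at most 10% mitochondrial UMIs were kept, and a stromal gate asked for at least 3 UMIs of the fibrillar collagen genes Col1a2 and Col3a1 together, at least 1 UMI of EYFP, and no UMI of Epcam (epithelium) or Pecam1 (endothelium). Members had at least 2 UMIs of Mki67, the proliferation marker Ki-67, and at least 2 of Top2a, the topoisomerase that untangles sister chromosomes. The members were thus chosen by their measured UMIs of these 7 genes. The rule found 365 barcodes, 196 in replicate 1 and 169 in replicate 2, among 2250 gated stromal barcodes and 11369 barcodes in all. They were compared with the 1411 barcodes of the same gate that had no UMI of either gene, called non-dividing below, within each library. The other 474 gated barcodes lay between the classes.

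Both libraries came from kidneys of mice at birth (P0) with the genotype Rbpj c/- ; Foxd1cre/+, a conditional Rbpj allele over a second allele written as a minus, with Cre recombinase expressed from Foxd1. Foxd1 marks the progenitors of the renal stroma, so the deletion is aimed at the stroma and its descendants. Whether other cells lost Rbpj was not tested. The series design also names 2 control libraries (Rbpj c/+ ; Foxd1cre/+), which were not analysed here, and mutant and control are nowhere compared below. The labels do not say which allele supplies EYFP, whether a library held 1 kidney or a pool, or which part of Rbpj the conditional allele loses.

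The stroma of a developing kidney is a mesenchyme that surrounds the nephron progenitors and tubules, and it gives rise to interstitial fibroblasts, mesangial cells and the muscle of the vessel walls. A cell that divides copies its DNA in S phase, for which it makes histones and replication enzymes, and then builds a spindle in G2 phase and mitosis with kinesins, cyclin B and the checkpoint kinases. Cells leave this cycle when inhibitors of cyclin-dependent kinases (CDKs) accumulate, and maturing stromal cells secrete collagens and proteoglycans. Rbpj is the transcription factor through which Notch receptors act.

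The libraries held 163405630 UMIs in replicate 1 and 135436576 in replicate 2, and after the mitochondrial limit 6220 and 5149 barcodes remained. No barcode of the stromal gate was found in both libraries, against 8 among all barcodes of at least 2000 UMIs. Summed over the members, the 8 genes of a stromal marker list reached 1826 and 1910 CPM (the counts of a gene scaled to one common total for every class) and none was at 0, while 12 genes of a ureteric and tubule epithelial list reached 39.8 and 41.3 CPM, with 1 of them at 0 in each library. Both classes held RNA of other cell types. The members held more of a list of 8 nephron progenitor genes, which summed to 372 and 446 CPM against 286 and 281 CPM in non-dividing barcodes. Of the 8, 5 (Six2, Cited1, Eya1, Meox1 and Gdnf) were called higher in members by the test described below, against 17.4% of all genes. Itga8 and Sall1 of the list also stand in the mesangial and transcription factor lists of stroma used below, so its sum need not come from progenitors alone. At least 3 UMIs of that list were found in 69.4% and 62.7% of members and in 42.7% and 40.2% of non-dividing barcodes, which were shallower. A list of 8 podocyte genes summed to 160 and 558 CPM in members and to 3793 and 3284 CPM in non-dividing barcodes. The counts of each gene list, and the values of a part of the single genes, are therefore also given for a marker-free gate, from which every barcode with a UMI of any of 6 markers of nephron progenitors, podocytes, immune cells and endothelium (Six2, Cited1, Ptprc and Kdr among them) was left out. In that gate the podocyte list summed to 79.3 and 66.9 CPM in members, with 3 of its genes at 0, and to 86.0 and 76.2 CPM in non-dividing barcodes. The nephron progenitor list there summed to 287 and 312 CPM against 322 and 292 CPM, with 1 of its genes called higher (Gdnf) and 1 lower (Crym). The filter itself sets the marker genes in both lists to 0, so these sums and calls are in part fixed by it. A list of 7 erythroid genes, which the 6 markers do not remove, summed to 567 and 658 CPM in members against 1166 and 1167 CPM in non-dividing barcodes. Without the markers it stood at 723 and 866 CPM against 761 and 295 CPM. With classes set after thinning to 5000 UMIs all 4 of its tested genes were called higher in members, against 12.3% of all genes. The part of this RNA in the results was not tested beyond these values.

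Mki67 and Top2a chose the members, so their levels are a description. A member held a median of 13 Mki67 UMIs in replicate 1 and 11 in replicate 2, with maxima of 76 and 57. Its median of Top2a was 20 and 19 UMIs, with maxima of 87 and 65. Most members therefore lay far above the limit of 2. Just inside it, with 1 of the genes at exactly 2 UMIs, were 23 and 14 barcodes, and just outside it, with 1 gene at 2 or more and the other at 1, were 39 and 29. The summed UMIs of a list of 57 genes of G2 phase and mitosis, counted after thinning each barcode to 5000 UMIs, had medians of 62 and 61 over all members, 24 and 34 just inside, 14 and 23.5 just outside, and 2 and 2 in non-dividing barcodes. On the annotation of RefSeq GRCm38.p6 (the build the submitters call mm10), Mki67 lies on chromosome 7 at 135689784 to 135716450 and Top2a on chromosome 11 at 98992947 to 99024199.

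**Figure D1:**
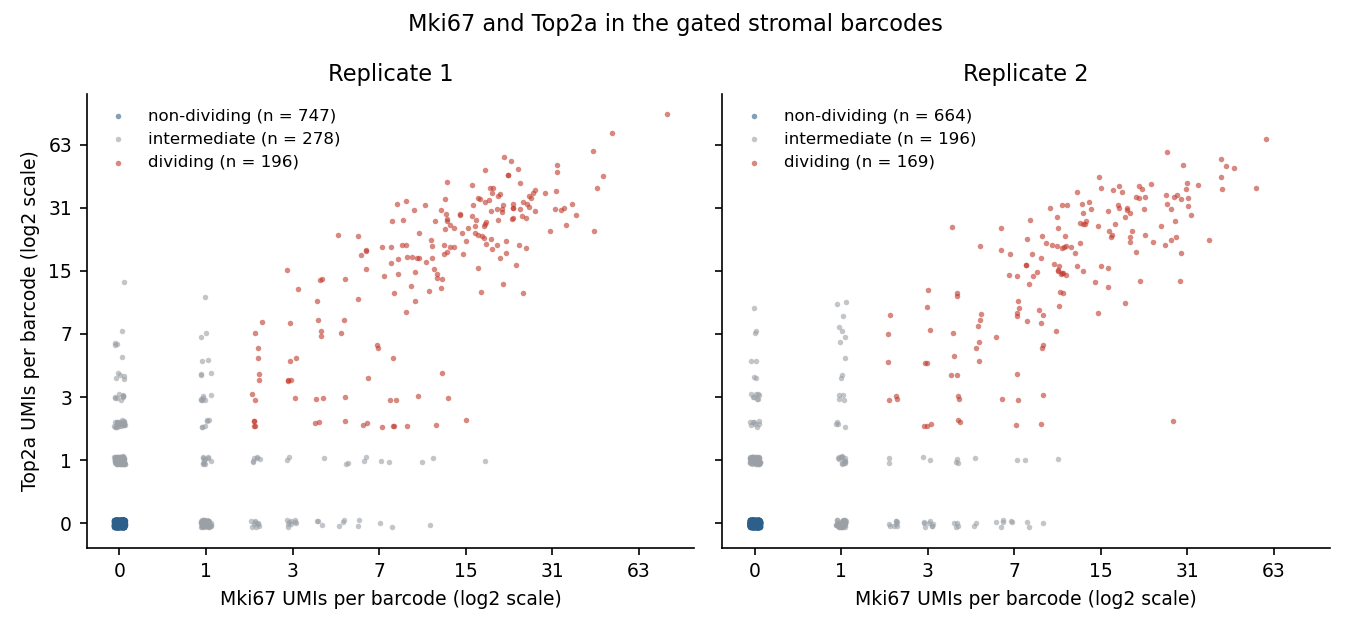
UMIs of Mki67 (x axis) and Top2a (y axis) in each gated stromal barcode, on log2 scales of UMIs plus 1 with a small random offset, for replicates 1 and 2. Red points are the 196 and 169 members, grey points the 278 and 196 intermediate barcodes and blue points the 747 and 664 non-dividing barcodes at 0 of both genes. Most members form a cloud well above the limit of 2 UMIs, where both genes are high together.

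Members made up 16.1% of the gated stromal barcodes in replicate 1 (95% exact binomial interval 14.04 to 18.2) and 16.4% in replicate 2 (14.2 to 18.8). These intervals cover counting error only. A fixed limit in UMIs is easier to reach in a deep barcode, and members were deeper: their median was 14691 UMIs in replicate 1 and 13722 in replicate 2, against 9330 and 8986.5 in non-dividing barcodes, a ratio of 1.57 and 1.53. When every barcode was first thinned to 5000 UMIs and the gate and classes were set afterwards, the share was 12.7% and 14.9%, and the ratio of the full depths was still 1.62 and 1.55. Members also showed more genes, with medians of 4133 and 3917 against 3119 and 2995. At 5000 UMIs the medians were 2171 and 2143 against 2109.5 and 2085, for which 5 and 1 members and 47 and 53 non-dividing barcodes were too shallow. Median mitochondrial shares were 4.80% and 5.28% in members and 4.95% and 5.37% in non-dividing barcodes.

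For each gene the UMIs were summed per library over members and over non-dividing barcodes, and edgeR's quasi-likelihood test compared the sums with the library as a block. Of 13674 genes tested, 2374 were higher and 2273 lower in members at a Benjamini-Hochberg adjusted p under 0.05, so that 34.0% of all genes were called, 17.4% upward and 16.6% downward. With the marker-free gate 1826 were higher (13.8%) and 1446 lower (10.9%), 24.7% of 13235 genes. Thinned to 5000 UMIs, 1526 were higher and 1319 lower of 11110 genes, and with classes set after thinning 1234 and 988 of 10000. Counts of list members below are to be read beside these shares. The median log2 change over all genes was -0.02. The rule and every other gene were read from the same barcodes, so a rise of genes that share the cell cycle with Mki67 and Top2a follows in part from the rule. The cell-cycle lists are therefore given as a description of what the members contain. The p-values rest on the spread left after the library block, pooled over the sums of stroma, nephron progenitors and endothelium. Stromal sums alone leave 1 residual degree of freedom. The 2 libraries share the gate and may be technical replicates. Where a library is left out below, only its stromal sums were dropped and stroma kept 1 sum per class, so only the change is given.

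Among genes of at least 20 CPM, the 10 largest rises were led by Esco2. Esco2, which acetylates cohesin so that sister chromatids stay joined, had 352 and 351 UMIs in members and 1 UMI in the non-dividing barcodes of each library. This was 110 and 131 CPM against 0.123 and 0.142 CPM, a ratio of 896 (95% counting interval 160 to 35490) in replicate 1 and 917 (163.5 to 36320) in replicate 2. Kif18b, a kinesin of spindle microtubules, had 80 and 72 UMIs in members and 0 and 1 in non-dividing barcodes. Hmmr, a spindle assembly factor, stood at 246 and 218 CPM against 0.861 and 0.712 CPM, a log2 change of 8.25 ± 0.20 (SE; edgeR adjusted p = 8.6e-12). The others of the 10 were Hist1h3b, Hist1h2af, Depdc1a, Hist1h2bh, Kif4, Pbk and Kif11.

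All 57 genes of the mitosis list rose, with a median log2 change of 6.12 (6.05 in the marker-free gate, where all 57 rose as well). Kif11, the kinesin that pushes spindle poles apart, was at 259 and 255 CPM in members and 1.72 and 1.42 CPM in non-dividing barcodes, a change of 7.41 ± 0.22. Pbk, a mitotic kinase, was at 153 and 154 CPM against 1.11 and 0.71 CPM. The presence of single genes at equal depth shows how common they were: at 5000 UMIs a Cdk1 UMI, from the kinase that drives entry into mitosis, was found in 85.9% and 81.0% of members and in 11.1% and 9.98% of non-dividing barcodes. For Ccnb1, cyclin B1, the shares were 53.4% and 51.2% against 1.29% and 0.491%. In non-dividing nephron progenitor barcodes a Cdk1 UMI was found in 3.92% and 3.83% and a Ccnb1 UMI in 0.654% and 1.39%. Cdk1 was therefore seen in most members and Ccnb1 in about as many as lacked it, and both Cdk1 and Ccnb1 were shown after their values had been seen.

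All 17 histone genes of the list rose too, by a median of 4.02, and all 17 rose in the marker-free gate, by 3.89. Hist1h1b, a linker histone, was at 3822.5 and 3561 CPM in members and at 33.2 and 33.5 CPM in non-dividing barcodes, a change of 6.88 ± 0.18. Hist1h2ap, a core histone, was at 1627 and 3336.5 CPM against 11.2 and 22.6 CPM, so that it was higher in replicate 2 in both classes. Hist1h3c stood at 193 and 204 CPM against 1.6 and 2.28 CPM. Histone genes of 1 family share sequence, and how the submitters' counting split reads between copies is not given in the sources used here. Their messages mostly lack the poly(A) tail that 3′ libraries prime on, so the levels are not those of all histone transcripts.

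The 36 genes of DNA replication and the G1 to S transition rose less, by a median of 2.12, and all 36 were called. Rrm2, the subunit of ribonucleotide reductase made in S phase, was at 90.2 and 119 CPM in members against 4.92 and 5.98 CPM, a change of 4.33 ± 0.18. Mcm10 and Cdc45, which start the replication fork, rose by 3.797 ± 0.371 and 3.796 ± 0.274. In the marker-free gate 35 of the 36 rose, with a median of 1.86, and with classes set after thinning to 5000 UMIs 33 rose, with a median of 1.62 (12.3% of all genes were called higher in that setting). Non-dividing barcodes thus held far more of the replication genes, relative to members, than of the mitosis genes.

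The members were not alike in these lists. Across single members at 5000 UMIs, the summed UMIs of the mitosis list ranged from 6 to 174 in replicate 1 and from 7 to 184 in replicate 2, with quartiles of 37.5 and 95.5, and of 34 and 93.25. The replication list ranged from 2 to 55 and from 0 to 50. The lists ran against each other, with a Pearson r of -0.672 over 191 members and -0.656 over 168, whereas the mitosis list and the histone list did not run together (r = 0.0249 and 0.0271). All these points share a library and a fixed total of 5000 UMIs, so r is a description. A set of 5 late mitotic genes (Ccnb1, Cdc20, Plk1, Cenpe and Cenpa) had more UMIs than 8 replication genes (Ccne1, Ccne2, Cdc6, Slbp, Mcm5, Mcm6, Uhrf1 and Gins2) in 61.3% of members (interval 54.0 to 68.2) and 58.9% (51.1 to 66.4), and fewer in 37.7% and 38.1%. These 2 sets were picked after the lists had been examined, and the shares depend on which genes were picked. In the non-dividing class a tail of barcodes reached up to 35 and 31 UMIs of the replication list.

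**Figure D2:**
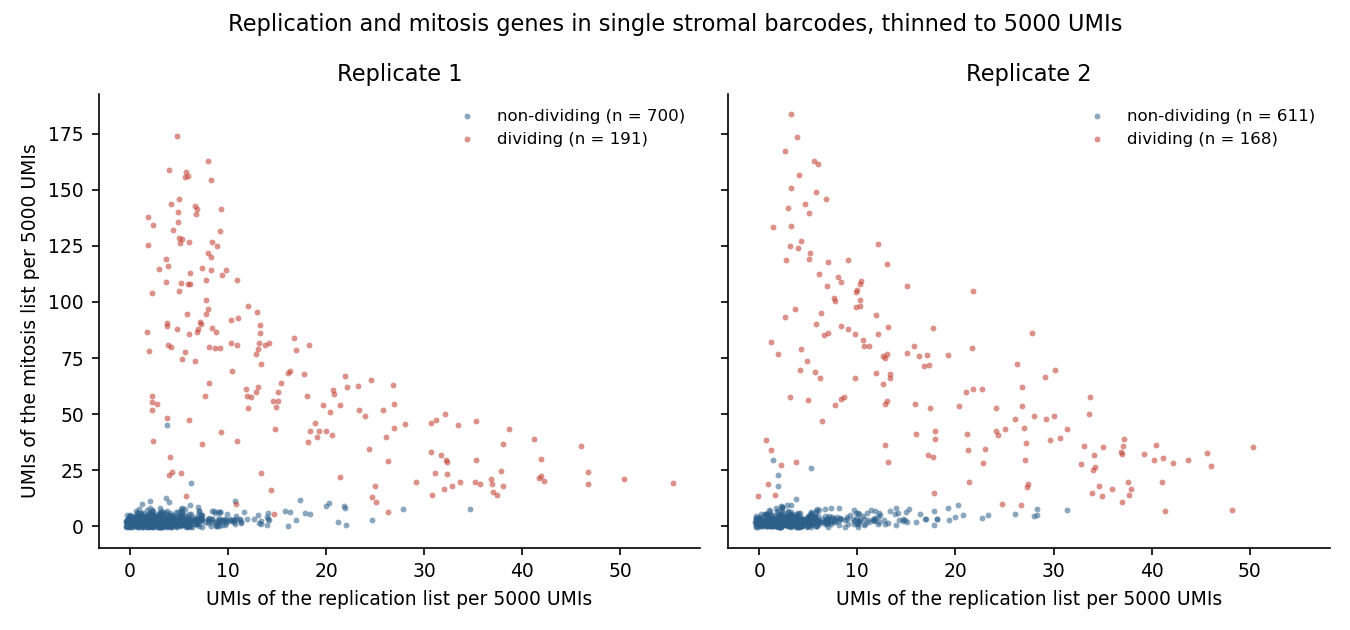
Summed UMIs of the replication list (x axis) and of the mitosis list (y axis) in single barcodes thinned to 5000 UMIs, for replicates 1 and 2, with a small random offset. Red points are the 191 and 168 members of at least 5000 UMIs and blue points the 700 and 611 non-dividing barcodes. Members run along a curve from many mitosis UMIs with few replication UMIs to the opposite (r = -0.672 and -0.656), while non-dividing barcodes lie near a median of 2 mitosis UMIs.

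The genes whose UMIs followed Mki67 and Top2a most closely across gated barcodes at 5000 UMIs were Nusap1 (r = 0.807), Prc1 (0.788), Hmgb2 (0.782), Cks2 (0.737) and H2afx (0.735) in replicate 1, over 1157 barcodes. In replicate 2, over 964 barcodes, they were Prc1 (0.755), Hmgb2 (0.738), Kif11 (0.722), Nusap1 (0.721) and Hist1h2ap (0.709). Nusap1 and Prc1 bundle spindle microtubules and Hmgb2 bends DNA. Nusap1, Prc1 and Hmgb2 stood among the first 5 in both libraries.

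Of 20 genes that set the pace of G1 phase (D cyclins, their kinases, CDK inhibitors and pocket proteins), 7 rose, 7 fell and 6 did not pass the test, with a median of -0.09 (0.09 in the marker-free gate, where 7 rose and 8 fell). The fall was led by Cdkn1c, an imprinted CDK inhibitor that marks cells leaving the cycle. It stood at 626 and 775 CPM in members and at 4827 and 4915 CPM in non-dividing barcodes, a change of -2.71 ± 0.26 (edgeR adjusted p = 3.36e-06), and both sums of members lay below both sums of non-dividing barcodes. Podocytes express Cdkn1c as well, and in the marker-free gate its change was -1.74 (adjusted p = 0.000122). Most members nevertheless held some: at 5000 UMIs a Cdkn1c UMI was found in 77.5% and 79.2% of members and 93.4% and 90.8% of non-dividing barcodes, against 51.6% and 47.7% of non-dividing nephron progenitor barcodes. The gene lies on chromosome 7 at 143458339 to 143461059 (GRCm38.p6).

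Some other CDK inhibitors moved the opposite way. Cdkn2c was at 84.3 and 58.4 CPM in members and 2.83 and 2.56 CPM in non-dividing barcodes, a change of 4.80 ± 0.21. Cdkn2d was at 101 and 90.8 CPM against 17.0 and 18.4 CPM, a change of 2.53 ± 0.13. Cdkn1b, an inhibitor of CDK2 complexes, rose by 0.47 ± 0.09, from 85.4 and 83.2 CPM to 112 and 109 CPM, but with at most 5% mitochondrial UMIs Cdkn1b was at 0.31 and not called (adjusted p = 0.12). Rbl1, a relative of the retinoblastoma protein, rose by 2.60 ± 0.24, and Ccng2, an atypical cyclin, by 1.18 ± 0.12. Cdkn1a was near the floor in both classes, at 7.20 and 5.95 CPM against 3.94 and 3.70 CPM, and did not pass the test (adjusted p = 0.196).

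The D cyclins, which carry growth signals into the cycle, were not higher in members. Ccnd2 was at 326 and 275 CPM against 522 and 501 CPM, a change of -0.70 ± 0.13 that was -0.26 and not called with at most 5% mitochondrial UMIs (adjusted p = 0.2515). Ccnd1 was at 89.9 and 116 CPM against 121 and 144 CPM and did not pass the test (-0.29 ± 0.18, adjusted p = 0.238), but it was called in the marker-free gate at -0.82 (adjusted p = 0.00152). It was also called lower when thinned to 5000 UMIs (-0.71), with classes set after thinning (-0.72) and without doublet calls (-0.42), but not by DESeq2 or without the library as a block. Btg2, an antiproliferative gene, fell by 1.91 on the log2 scale (-0.69 in the marker-free gate), and Gas1, named for growth arrest, by 0.73 on that scale.

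Matrix genes were lower in members. Of 34 genes of the interstitial matrix, 22 fell, 4 rose and 8 did not pass the test, with a median of -0.77 (16.6% of all genes fell and 17.4% rose). In the marker-free gate 24 fell and none rose, with a median of -1.05 (10.9% of all genes fell and 13.8% rose). Ogn, the small proteoglycan osteoglycin, was at 54.8 and 59.5 CPM in members against 260 and 219 CPM, a change of -1.99 ± 0.13 (adjusted p = 5.54e-08; -2.41 marker-free). Mfap5, a microfibril protein, was at 34.1 and 37.9 CPM against 151 and 136 CPM (-1.92, and -2.59 marker-free). Lox, which crosslinks collagen, was at 63.6 and 27.9 CPM against 214 and 141 CPM, and Postn, periostin, at 68.0 and 74.4 CPM against 233 and 239 CPM. Col1a1, the partner of Col1a2 in type I collagen, was at 727 and 777 CPM against 1472 and 1803.5 CPM, a change of -1.02 ± 0.22 (-1.29 marker-free). Col1a1 kept this size but lost its call without the library as a block (-1.04, adjusted p = 0.0663) and by DESeq2 (-1.05, adjusted p = 0.0753). The members of each library lay below the non-dividing barcodes of both libraries for each of these 5 genes.

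The 4 matrix genes called higher were Timp1, Igfbp5, Fbln1 and Emilin1. Igfbp5, an insulin-like growth factor binding protein, was at 904 and 760 CPM against 607 and 561 CPM, a change of 0.59 ± 0.10. In the marker-free gate it was 0.17 (adjusted p = 0.243), and Timp1, Fbln1 and Emilin1 were not called there either (0.40, 0.18 and 0.25). The collagens Col1a2 and Col3a1 belong to the rule and are not tested. They stood at 918 and 1060 CPM and at 937 and 1126 CPM in members, against 1902 and 2168 CPM and 1874 and 1987 CPM in non-dividing barcodes.

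Genes of the mature interstitium were also lower in members. Of the 7 interstitial genes 6 fell in both gates, with medians of -1.44 and -1.67, and 2 of the 6, Dcn and Lum, also stand in the matrix list. Dcn, the proteoglycan decorin, was at 130 and 204 CPM in members against 428 and 514 CPM, a change of -1.44 ± 0.11 (adjusted p = 5.82e-07). Cxcl14, a chemokine, was at 16.6 and 15.6 CPM against 60.6 and 72.8 CPM, a change of -1.96 ± 0.25. Cxcl12, another chemokine, was at 104 and 134 CPM against 494 and 357 CPM, and its change of -1.76 was -1.06 in the marker-free gate. Smoc2, a matricellular protein, fell by 1.54 on the log2 scale.

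Of 9 genes of medullary stroma, 8 fell in each gate, with medians of -1.06 and -1.16. These genes were low: Corin, a protease, had 0 and 5 UMIs in members and 44 and 123 UMIs in non-dividing barcodes, which in replicate 1 puts it at least 5.76-fold lower against a floor of 3 UMIs. Of 7 genes of adventitial-type fibroblasts 4 fell, with a median of -1.52, and 5 in the marker-free gate. Clec3b, tetranectin, was at 9.71 and 24.2 CPM against 54.8 and 61.7 CPM, a change of -1.76 ± 0.22 (-2.66 marker-free). Pi16, a marker of such fibroblasts, had 2 and 5 UMIs in members against 111 and 75. Dpp4 fell by 3.71 on the log2 scale, but by 1.56 in the marker-free gate.

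Contractile genes of mural cells gave a less even picture. Of 10 genes 3 fell and 7 did not pass the test, with a median of -0.19, while in the marker-free gate 6 fell, with a median of -1.73. Tagln, transgelin, was at 184 and 85.9 CPM in members against 520 and 648 CPM, a change of -2.03 ± 0.39. Acta2, smooth muscle actin, was at 917 and 339 CPM against 1000.8 and 974 CPM. The fall of Acta2 (-0.68, adjusted p = 0.0422) rested on replicate 2, without which it was -0.04. Acta2 was not called by DESeq2 (-0.72, adjusted p = 0.0658), without the library as a block (-0.57, adjusted p = 0.2525) or with at most 5% mitochondrial UMIs (-0.28). Nor was it called with at least 4 UMIs of Mki67 and of Top2a (-0.59). The fall of Myl9, a myosin light chain (-0.52, adjusted p = 0.0489), rested on replicate 2 as well, without which it was -0.17. It was not called by DESeq2 (-0.55, adjusted p = 0.0929), with at most 5% mitochondrial UMIs (-0.21) or without the library as a block (-0.50), but was at -0.82 in the marker-free gate (adjusted p = 0.00312). Myh11, smooth muscle myosin, was at 7.83 and 61.8 CPM against 36.8 and 46.7 CPM and did not pass the test, but was at -3.52 in the marker-free gate (adjusted p = 0.000867). Without the doublet calls Myh11 was at -3.34. Of 8 mesangial genes 1 fell, Agtr1a (-0.88, adjusted p = 0.034), and 3 fell in the marker-free gate. Agtr1a was at -1.54 without replicate 1 and at -0.48 without replicate 2.

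Genes of the cortical, nephrogenic-zone stroma split. Of 9, 4 rose, 2 fell and 3 did not pass the test, and in the marker-free gate 3 rose and 3 fell. Of the 4 rises, Rspo1 (1.09) was at -0.56 in the marker-free gate. Rspo3 (0.63, adjusted p = 0.041) was at 0.077 without replicate 1 and was not called without the library as a block (0.56, adjusted p = 0.336). Of the falls, Clca3a1 (-0.65) was at -0.37 without replicate 2 and was not called without the library as a block (-0.57, adjusted p = 0.442). Fibin, a secreted protein, was at 223 and 222 CPM in members against 98.7 and 118 CPM, a change of 1.12 ± 0.14 (adjusted p = 3.52e-05; 0.84 marker-free). Aldh1a2, which makes retinoic acid, was at 284 and 328 CPM against 190 and 198 CPM, a change of 0.74 ± 0.15 (0.58 marker-free). Foxd1, the gene whose locus carries Cre here, was at 67.3 and 73.3 CPM against 133 and 120 CPM, a change of -0.77 ± 0.16 (adjusted p = 0.00201). In the marker-free gate its change was -0.12 (adjusted p = 0.668), and without replicate 1 it was -0.63. With classes set after thinning Foxd1 was at -0.39 (adjusted p = 0.097). The call was lost in the marker-free gate and with classes set after thinning. The size of the change stayed close to the first value without replicate 1 and was near 0 in the marker-free gate.

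**Figure D3:**
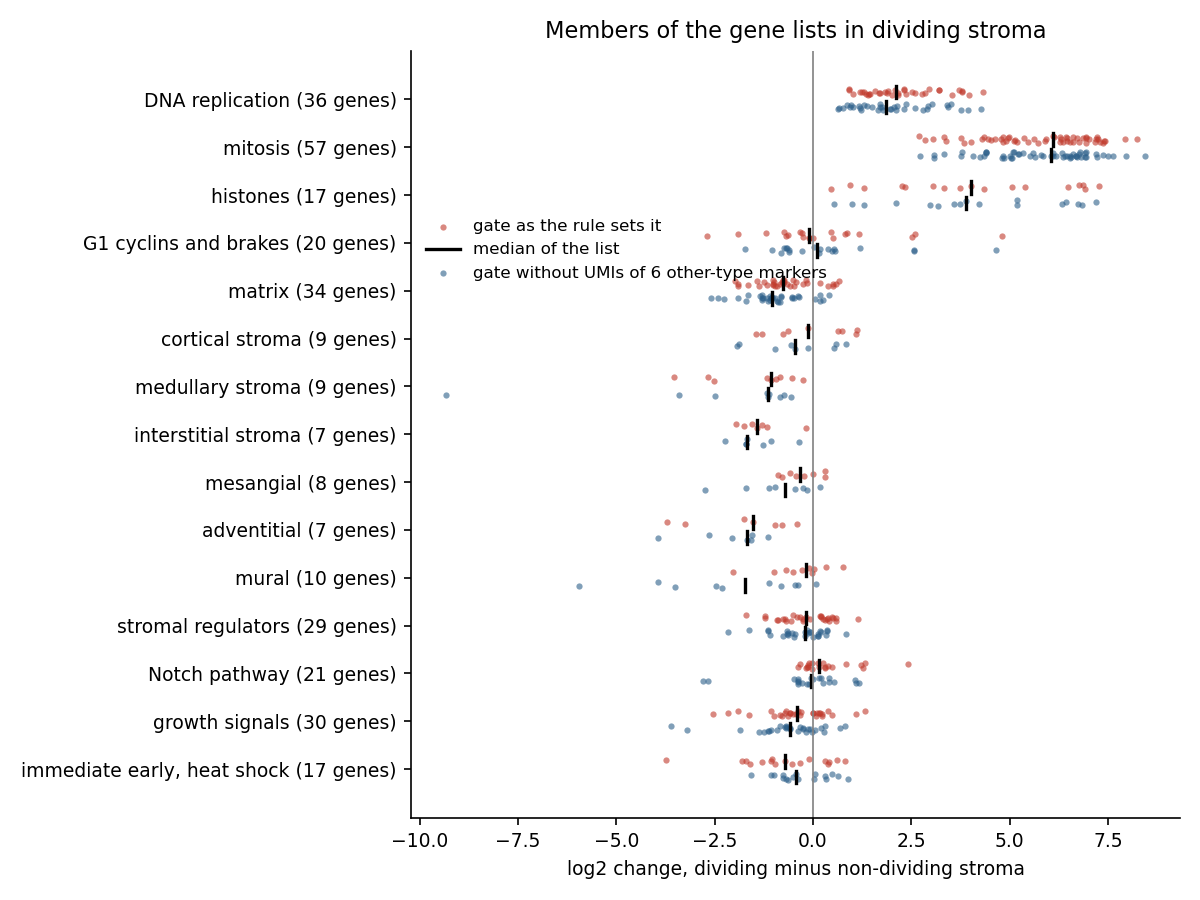
Fitted log2 change (x axis, dividing minus non-dividing stroma) of every tested gene of 15 lists (y axis), for the gate as the rule sets it (red) and the gate without UMIs of 6 other-type markers (blue), with black bars at the list medians. Mitosis, histone and replication genes lie to the right of 0 (medians 6.12, 4.02 and 2.12), and matrix and interstitial genes mostly to the left (-0.77 and -1.44). Values of genes with 0 UMIs in a class depend on the fit's prior and are no bounds.

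The markers were also read the other way: among gated barcodes thinned to 5000 UMIs, the share of members was taken with and without a marker (at least 1 UMI of a gene, or 2 of a list). With a Dcn UMI, 8.50% of 341 barcodes were members in replicate 1 and 10.1% of 306 in replicate 2. Without one they were 19.9% of 816 and 20.8% of 658, and the 95% intervals did not overlap in either library. With 2 UMIs of the interstitial list the share was 9.33% and 12.1%, against 25.8% and 24.3% without. With a Cdkn1c UMI it was 14.5% and 15.8%, against 31.6% and 28.2% without. With 2 UMIs of the cortical list it was 18.9% and 21.2%, against 11.02% and 9.75% without, and the intervals lay apart in both libraries. In replicate 1 they overlapped in the marker-free gate (19.1% against 12.6%) and with gate and classes set at 5000 UMIs (14.3% against 8.80%), and in replicate 2 they lay apart in both.

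The shares by Dcn, the interstitial list and Cdkn1c kept their order in both libraries in the marker-free gate and when gate and classes were set at 5000 UMIs. For Dcn in the marker-free gate they were 8.60% and 10.4% with and 21.5% and 23.3% without. For Cdkn1c there they were 15.5% and 17.6% with and 29.2% and 27.0% without, and the intervals overlapped in replicate 2. With 2 UMIs of the medullary list 16.4% and 18.1% were members, against 16.6% and 16.9% without, so that list, whose genes mostly fell in the sums, showed no such gap. With the mural list the shares were 16.7% and 16.2%, against 15.3% and 21.6% without. They were 16.6% and 16.3% against 23.5% and 32.5% in the marker-free gate, lower with the list in both libraries, and the intervals did not overlap in replicate 2. With classes set at 5000 UMIs they were 12.5% and 13.8% against 14.3% and 19.7%. With 2 UMIs of the adventitial list 3.23% and 6.30% were members, against 18.6% and 19.1% without, and the intervals lay apart in both libraries. Few barcodes of that list remained in the marker-free gate, where 1 of 38 and 4 of 32 were members (2.63% and 12.5%, against 17.8% and 19.1%) and the intervals overlapped in replicate 2. With an Acta2 UMI 14.2% and 14.05% were members, against 20.2% and 21.7% without. With a Foxd1 UMI 13.98% and 15.2% were members, against 17.7% and 18.4% without, and those intervals overlapped. With an Igfbp5 UMI 19.4% and 21.9% were members, against 12.5% and 12.9% without, and the intervals lay apart in both libraries. They overlapped in the marker-free gate (18.1% and 22.0% against 15.5% and 15.2%). For the mesangial list and Pdgfra (17.3% and 18.5% against 15.5% and 15.97%) they overlapped in the gate as the rule sets it. For the mesangial list in the marker-free gate the shares were 15.4% and 14.4% with and 19.5% and 23.9% without, and the intervals overlapped in replicate 1 and lay apart in replicate 2. No test over libraries was made of these shares, since a sign-flip test over 2 libraries cannot go below p = 0.5, exact and two-sided.

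**Figure D4:**
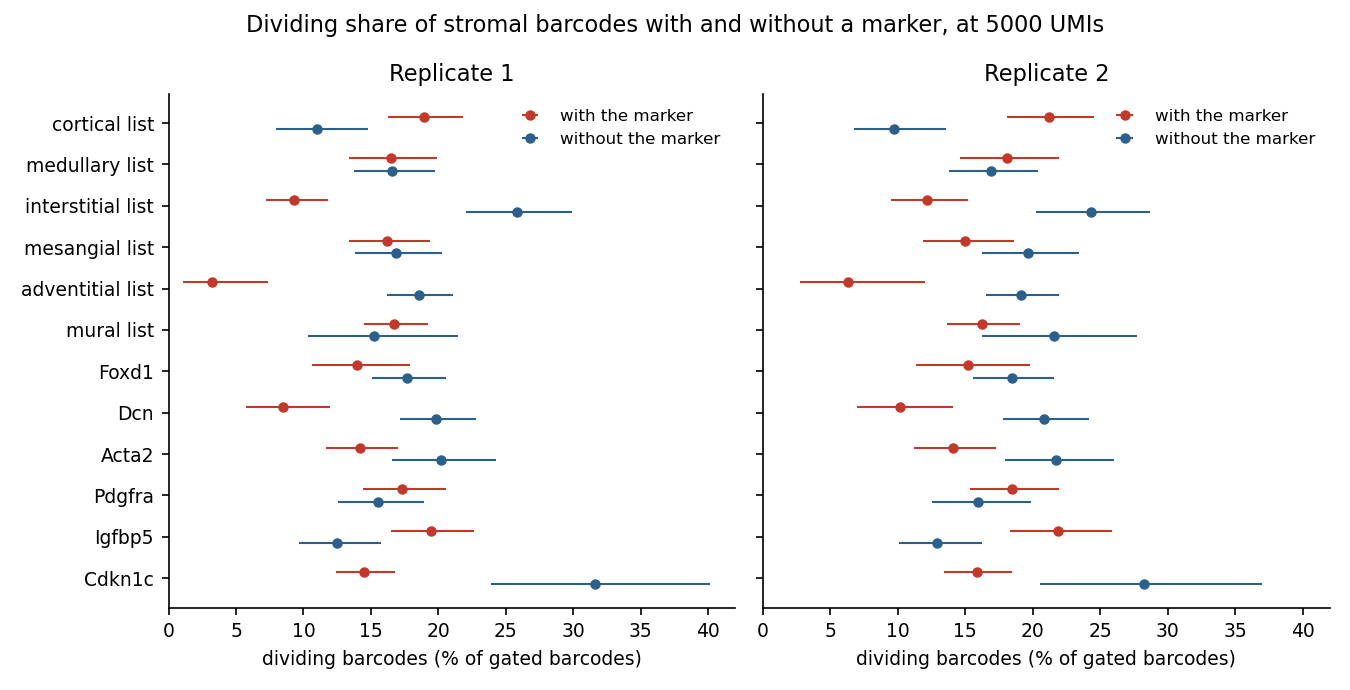
Share of members among gated stromal barcodes (x axis, percent) with (red) and without (blue) a marker, for 6 lists and 6 genes (y axis), at 5000 UMIs in replicates 1 and 2. A list counts as present at 2 UMIs and a gene at 1 UMI, and bars are 95% exact binomial intervals. The interstitial and adventitial lists, Dcn and Cdkn1c lie apart in both libraries, with a lower share where the marker was present. The cortical list and Igfbp5 lie apart with a higher share. In the marker-free gate, not drawn here, the intervals of Igfbp5 overlapped in both libraries. Those of the cortical list overlapped there in replicate 1, and those of Cdkn1c and the adventitial list in replicate 2.

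Of 29 transcription factors of the stroma, 9 rose, 8 fell and 12 did not pass the test, with a median of -0.17 (17.4% of all genes rose and 16.6% fell). In the marker-free gate 2 rose and 11 fell (13.8% and 10.9% of all genes). Twist1, a regulator of mesenchyme, was at 102 and 108 CPM in members against 50.8 and 50.6 CPM, a change of 1.13 ± 0.15 (0.83 marker-free, adjusted p = 0.00141). Tcf4, the other gene called higher in both gates, rose by 0.59 ± 0.10. Zeb2 was at 253 and 212 CPM against 462 and 471 CPM, a change of -0.92 ± 0.11 (-1.09 marker-free). Klf2, a transcription factor of the Kruppel-like family, was at 31.01 and 21.6 CPM against 68.5 and 61.9 CPM, a change of -1.21 ± 0.21. Foxc1 and Foxc2, which podocytes also express, fell by 1.71 and 1.21 on the log2 scale, and in the marker-free gate were at -0.14 and -0.21 (adjusted p = 0.828 and 0.414).

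The Notch pathway, whose transcription factor the mutation targets, gave few calls. Of 21 genes 1 rose, none fell and 20 did not pass the test, with a median of 0.14, and in the marker-free gate 2 rose (Notch1 and Hes1) and 1 fell (Dtx1). Notch1, a receptor, was at 48.2 and 48.0 CPM in members against 30.0 and 26.3 CPM, a change of 0.85 ± 0.13 (0.53 marker-free, adjusted p = 0.0129). Rbpj itself was at 23.8 and 31.2 CPM against 32.4 and 31.2 CPM, a change of -0.14 ± 0.13 (adjusted p = 0.463). With at most 5% mitochondrial UMIs Rbpj was called lower, at -0.68 (adjusted p = 0.0114). At 5000 UMIs an Rbpj UMI was found in 10.5% and 11.3% of members and 14.7% and 11.6% of non-dividing barcodes. Because only transcript ends were counted, an Rbpj message without an internal exon would look complete, and the deletion is not checked by these values.

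Of 30 genes of growth factor, Hedgehog, Wnt, TGF-beta and Hippo signalling, 15 fell, 3 rose and 12 did not pass the test, with a median of -0.41 and the same counts in the marker-free gate. Ctgf, a target of YAP, was at 78.9 and 61.8 CPM in members against 232 and 232 CPM, a change of -1.64 ± 0.13 (adjusted p = 7.89e-07). Igf1, insulin-like growth factor 1, was at 3.45 and 11.5 CPM against 29.5 and 39.2 CPM. Mycn, a driver of proliferation in the embryo, was at 49.8 and 54.7 CPM against 20.2 and 24.1 CPM, a change of 1.32 ± 0.17 (0.80 marker-free). Gli3, a Hedgehog transcription factor, rose by 1.10 ± 0.13. Bmp7 fell by 2.54 on the log2 scale, but stood at -0.32 in the marker-free gate (adjusted p = 0.753).

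Immediate early and heat shock genes, which respond to stress and to tissue dissociation, also moved with the class. Of 17 tested genes 8 fell and 3 rose, with a median of -0.72, and in the marker-free gate 4 fell and 3 rose. Jun was at 37.0 and 42.04 CPM in members against 120 and 154 CPM, a change of -1.71 ± 0.12 (-1.06 marker-free). Ier3 was at 7.83 and 5.21 CPM against 76.2 and 114 CPM. Hsp90aa1, a chaperone, was at 768 and 776 CPM against 444 and 478 CPM, a change of 0.83 ± 0.11. The part of dissociation in these values was not tested.

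In the gate as the rule sets it, the 10 largest falls included Cxcl10, H2-Q6, Clic3, Rhpn1, Nupr1, Sema3g, Krt7, Dcdc2a and Clic5. Nupr1, a stress-response gene, was at 2.82 and 13.4 CPM in members against 162 and 161.5 CPM, a change of -4.32 (-2.83 marker-free), and all 8 genes of the podocyte list fell. In the marker-free gate the 10 largest falls were of Tcp11l2, Fzd10, Cnn1, Nrxn3, Myh11, Rbp4, Wnt4, Igf1, Nts and Sema3c, a list added after the podocyte signal had been seen. Tcp11l2 was at 3.13 and 3.35 CPM in members against 28.9 and 29.9 CPM, a change of -3.10 ± 0.30 (-4.15 marker-free). Rbp4, the retinol carrier, was at 3.13 and 1.49 CPM against 26.5 and 25.5 CPM. Nts, the peptide neurotensin, was at 8.14 and 15.3 CPM against 60.3 and 135 CPM.

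The same limits of Mki67 and Top2a were applied to nephron progenitor and endothelial gates of the same libraries. Nephron progenitors were barcodes outside the stromal gate with at least 3 UMIs of Six2 and Cited1 and none of Pecam1, and endothelium had at least 3 UMIs of Pecam1 and Kdr and none of Epcam or Six2, in each case with more UMIs of these genes than of the collagens. At full depth 29.6% and 20.8% of nephron progenitor barcodes and 17.7% and 23.4% of endothelial barcodes were dividing, against 16.1% and 16.4% of stroma. With classes set at 5000 UMIs the shares were 12.03% and 6.19% in nephron progenitors, 12.8% and 17.4% in endothelium and 12.7% and 14.9% in stroma. Stroma thus lay below the nephron progenitors at full depth, with intervals apart in replicate 1 and overlapping in replicate 2 (14.2 to 18.8 against 18.4 to 23.5). At equal depth the intervals overlapped in replicate 1 and stroma lay higher in replicate 2. Without barcodes over 50000 UMIs, and with no thinning, the shares were 15.99% and 16.4% in stroma and 17.6% and 14.05% in nephron progenitors. Dividing nephron progenitor barcodes had medians of 54213 and 34394 UMIs, and 154 of 295 and 85 of 210 exceeded 50000 UMIs, compared with 3 and 2 of the stromal members.

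**Figure D5:**
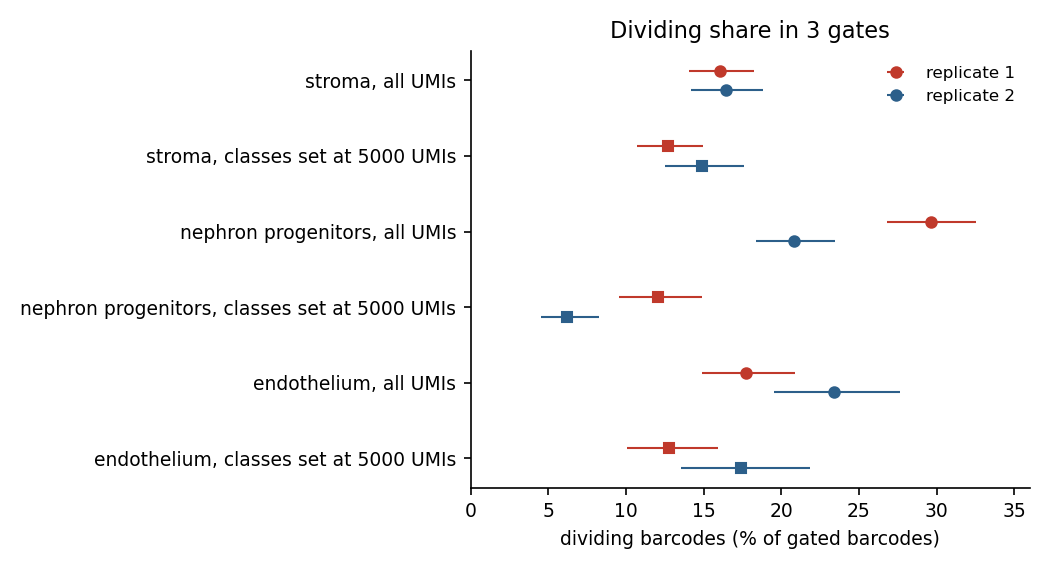
Share of dividing barcodes (x axis, percent of gated barcodes) in stroma, nephron progenitors and endothelium (y axis), at all UMIs (circles) and with gate and classes set after thinning to 5000 UMIs (squares). Red is replicate 1, blue is replicate 2 and bars are 95% exact binomial intervals. Stroma moves from 16.1% and 16.4% to 12.7% and 14.9%, while nephron progenitors move from 29.6% and 20.8% to 12.03% and 6.19%.

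The nephron progenitor classes differed in cell type as well as in division. In the dividing class a list of early nephron genes summed to 1372 and 1092 CPM and the epithelial list to 1007 and 1156 CPM, against 897 and 1026 CPM for the nephron progenitor list. In the non-dividing class the progenitor list was the highest, at 1707 and 1710 CPM, against 554 and 501 CPM for early nephron and 544 and 693 CPM for epithelium. The changes compared next are those of these classes, and the part of cell type in them was not tested. The change from non-dividing to dividing differed between stroma and nephron progenitors at an adjusted p under 0.05 for 3340 genes, 24.4% of those tested, by an interaction term in the same edgeR fit. The change was larger in stroma for 40 of 57 mitosis genes, 15 of 17 histone genes and 30 of 36 replication genes, against 12.1% of all genes, and smaller at that threshold for none of them. Hist1h1b rose by 6.88 in stroma and 3.81 in nephron progenitors, a difference of 3.07 (adjusted p = 2.49e-06). At 5000 UMIs a Hist1h1b UMI was found in 77 of 700 and 79 of 611 (12.9%) non-dividing stromal barcodes and in 21.8% and 19.5% of non-dividing nephron progenitor barcodes. Mycn also differed: it rose in stroma by 1.32 and was at -0.06 in nephron progenitors, a difference of 1.38 (adjusted p = 0.000433).

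The counts moved with the depth setting. The change was larger in stroma in the marker-free gate for 29 mitosis, 15 histone and 26 replication genes (7.68% of all genes). With the same classes thinned to 5000 UMIs it was larger for 12, 13 and 23 (5.88% of all genes), and without barcodes over 50000 UMIs for 15, 12 and 26 (6.22% of all genes), with a smaller change for 1 mitosis gene. With classes set after thinning to 5000 UMIs, 210 genes differed, 2.1% of those tested (1.26% with a larger change in stroma), and the change was larger in stroma for 11 histone, 5 mitosis and 3 replication genes. There the difference of Hist1h1b was 1.77 (adjusted p = 3.345e-12) and that of Mycn 1.56 (adjusted p = 0.00502). Against endothelium 727 genes differed, 5.32% of those tested (2.1% with a larger change in stroma), and the change was larger in stroma for 9 mitosis, 7 histone and 2 replication genes. With classes set after thinning these counts were 3, 2 and 0, where 1.21% of all genes differed and 0.71% had a larger change in stroma.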

How the data were processed

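The deposited files hold raw UMI counts per gene and barcode from 10x Chromium 3′ libraries, whole numbers that the authors did not normalize. The files' own headers name Cell Ranger 4, whereas the submitters' processing notes name Cell Ranger 6.0.1 and mm10. The matrices were unfiltered. Members, lists and the named-gene rule were chosen with earlier results of these data known. That rule took the 10 largest rises and falls (adjusted p under 0.05, the same direction in both libraries, at least 20 CPM), up to 4 called genes per list and direction, 8 set genes (Rbpj, Foxd1, Ccnd1, Ccnd2, Cdkn1a, Cdkn1b, Cdkn1c and Col1a1) and the 6 largest differences in each direction per other class. From these the text takes examples. Cdk1, Ccnb1, Agtr1a and the differences of Hist1h1b and Mycn were picked after their values were seen.

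UMIs were summed per library over dividing and non-dividing stroma, nephron progenitors and endothelium, giving 12 sums. edgeR 4.0.16 (quasi-likelihood, TMM, filterByExpr, library as a block, 5 residual degrees of freedom) tested 13674 genes in R 4.3.3, and DESeq2 1.42.0 was an alternative. Dividing and non-dividing sums of 1 library come from the same sample, which is where the block comes from; the replicate numbers follow sample order. SE was taken as the change divided by the square root of F. Thinning, classes and Scrublet scores (scanpy 1.11.5; the 332 and 242 barcodes with the highest scores counted as doublets) were computed in Python 3.11.15; doublets stayed in the main result. Counts were also simulated with 1 pooled mean per gene, the real library sizes and a dispersion of 0.02, where the main fit had a common dispersion of 0.0052. Over 13071 genes the test called 51.0% of 98 genes changed 2-fold and 91.6% of 95 changed 4-fold in dividing stroma, and 4 of 12878 unchanged genes. The simulation held no other differences between cell classes and no choice of barcodes by Mki67 and Top2a, so these rates need not hold for the real counts. Gene positions are from RefSeq GRCm38.p6. Other alternatives changed the UMI, mitochondrial and collagen limits, normalization, filter, depth and libraries used. Some items are not reported here.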

Additional observations from a re-analysis of the deposited data

Results flagged for a closer look

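Each of these results is a difference between 2 cell classes in the change from non-dividing to dividing barcodes, tested by the interaction term of the edgeR fit. The change differed between stroma and nephron progenitors for 3340 genes and between stroma and endothelium for 727. Dividing barcodes over 50000 UMIs held 82.9% and 73.1% of the UMIs of dividing nephron progenitors and 7.39% and 9.38% of those of dividing stroma. Without the barcodes over 50000 UMIs 1398 genes differed from nephron progenitors and 656 from endothelium.

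Hist1h3f, a core histone, rose by 5.09 ± 0.24 in stroma and 1.27 ± 0.21 in nephron progenitors, a difference of 3.81 (adjusted p = 1.2e-05), and 2.68 (adjusted p = 0.0127) with classes set after thinning. Gabra4, a receptor subunit, stood at -3.54 in stroma and 2.21 in nephron progenitors, a difference of -5.76 (adjusted p = 0.00101), but it had 7 and 4 UMIs in dividing stroma and too few counts to be tested in the marker-free gate. Kif4, a chromosome-binding kinesin, rose by 7.93 ± 0.22 in stroma and 4.80 ± 0.23 in endothelium, a difference of 3.13 (adjusted p = 0.00642). The difference was 2.83 (adjusted p = 0.0195) in the marker-free gate and 1.62 (adjusted p = 0.346) with classes set after thinning. C1s1, a complement protease, stood at -1.27 in stroma and 4.01 in endothelium, a difference of -5.28 (adjusted p = 0.0203). The difference was -5.53 (adjusted p = 0.0181) in the marker-free gate and 1.59 (adjusted p = 0.896) with classes set after thinning.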

How the results depend on the processing

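The share of members, 16.2% as the mean of the libraries (SD 0.263), was 13.5% with at least 4 UMIs of each rule gene, 17.5% with at least 10 collagen UMIs, 17.0% without the 6 markers, at most 5% mitochondrial UMIs, from 5000 UMIs or thinned to 5000, 28.0% among barcodes of at least 10000 UMIs, thinned to 10000, 15.7% without doublet calls, 13.8% with classes set after thinning, and 18.0% when thinned without the 6 markers. Genes called higher numbered 1526 when thinned to 5000 UMIs, 1234 with classes set after thinning and 1188 when thinned without the 6 markers. Genes called lower numbered 1446 without the 6 markers, 1319 and 1446 when thinned to 5000 and 10000, 988 with classes set after thinning and 948 when thinned without the 6 markers. With 1 library left out they ranged from 1424 to 1510 higher and from 1080 to 1279 lower. Genes that differed from nephron progenitors numbered 1911 without the 6 markers, 2028 at 5% mitochondrial UMIs, 1187 and 1573 when thinned, 210 with classes set after thinning, 1398 without barcodes over 50000 UMIs, 728 when thinned without the 6 markers and 1810 to 2023 with 1 library left out. Genes that differed from endothelium numbered 303, 1142 without doublet calls, 304 and 303, 121, 127 and 275 to 436 in the settings without the 6 markers, doublet calls, thinned, with classes set after thinning, thinned without the 6 markers and with 1 library left out. Fewer genes and barcodes were tested after thinning, and otherwise the cause was not tested. The settings over 50000 UMIs and thinned without the 6 markers, and the share at 10000 UMIs, were chosen after seeing the data.

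Without the library as a block, that is without pairing the classes of 1 library, 2171 genes were higher and 2067 lower, and 2731 and 552 differed from nephron progenitors and endothelium. Of 77 named genes 52 kept direction and call in every alternative that gave a value. Rspo1, called higher (1.09), was at -0.56 without the 6 markers, -0.15 at 5% mitochondrial UMIs, -1.02 with classes set after thinning and -2.43 when thinned without the 6 markers. Rbpj, not called, was called at -0.68 with at most 5% mitochondrial UMIs, was at 0.0026 with classes set after thinning and ranged from -0.355 to 0.082 with 1 library left out. Myh11, not called, was at 0.051 by DESeq2 and ranged from -2.14 to 0.48 with 1 library left out.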
